A study of Saccharomyces cerevisiae with 6 samples.

Results

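The 10 genes described here are grouped as genes of thiamine (vitamin B1) synthesis in *Saccharomyces cerevisiae*: THI4, THI5, THI6, THI11, THI12, THI13, THI20, THI21, THI22 and THI80. Of these, THI22 is a relative not needed for the synthesis, and THI80 acts on thiamine once made. The 10 genes were chosen by gene symbol in the array's annotation, which gave 1 probe for each among 6248 genes and unnamed probes. The strains were compared in 6 cultures, 3 of 59A PDR8-S288c and 3 of 59A wild type. 59A is a MATa haploid (ho) derived from the wine yeast EC1118, and 59A PDR8-S288c is the same strain with its PDR8 gene, a regulator of drug resistance, replaced by the allele of the laboratory strain S288c, together with a loxP-kanMX4-loxP cassette in the PDR8 terminator. Effects of the allele and of the cassette cannot be told apart, and the sources used here do not say whether 59A PDR8-S288c was 1 clone. All cultures fermented an anaerobic synthetic grape must (SM425, 425 mg/l assimilable nitrogen, with added p-aminobenzoic acid and iron) and were sampled in stationary phase at 66 g/l CO2, or 70% of fermentation.

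Yeast assembles thiamine from a pyrimidine and a thiazole unit that are made separately, joined and then converted to thiamine diphosphate, the cofactor of pyruvate decarboxylase, transketolase and other enzymes of sugar metabolism. THI5, THI11, THI12 and THI13 are near-identical copies of the gene for the enzyme that makes the pyrimidine unit from vitamin B6 and a histidine of the enzyme itself. Most of these genes are switched on together when thiamine runs low, through the regulators Thi2p, Thi3p and Pdc2p.

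Each value is a log2 normalized spot intensity from 1 one-color array per culture, on a scale where 5.3 is background and 16 is saturation, so that 1 unit is a doubling. The array of wild type replicate 3 had no value for 2066 of 6271 probes (32.9%), and THI12, THI13 and THI22 were among these, so these 3 genes compare 3 cultures with 2. The PDR8 target QDR2 followed the labels, with 9.84 ± 0.12 in 59A PDR8-S288c and 7.61 ± 0.06 in the wild type (SD, n = 3 each). PDR8 itself stood at 6.74 ± 0.04 in 59A PDR8-S288c (SD, n = 3) and 7.24 ± 0.04 in the wild type (SD, n = 2), a log2 fold change of -0.49 (limma adjusted p = 0.026), and the match of its probe to each allele was not examined. The MATa genes measured ran from 6.70 to 11.46, while the 3 alpha-specific genes were between 5.33 and 6.00, near background. The largest log2 fold changes were -0.38 for MFA1 and -0.26 for AGA2 among the MATa genes, and 0.13 for STE3 and 0.03 for MF(ALPHA)2 among the alpha-specific ones, with no limma adjusted p under 0.05 (2 wild type values except for MFA1). The values describe the RNA of a whole culture, so fewer cells with a transcript and less of it per cell cannot be told apart.

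None of the 10 genes differed between the strains at an adjusted p under 0.05 (limma, adjusted over all features), against 96 of 6248 features or 1.54%. At an unadjusted p under 0.05 there were 2 of the 10, THI6 and THI22, against 18.1% of all features. Adjusted p of the 10 genes ran from 0.171 to 0.946. The log2 fold changes (59A PDR8-S288c minus wild type) ran from -0.27 for THI22 to 0.06 for THI20, with 6 genes below 0, 4 above 0 and a median of -0.11, against 0.01 over all features. The count below 0 and the median depended on wild type replicate 3. Without it 4 genes were below 0 and the median was 0.033, again against 0.01 over all features. The value of THI22, which that array did not read, stayed the same. An exact permutation test cannot give a two-sided p below 0.1 with 3 cultures against 3, or 0.2 with 3 against 2.

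**Figure D1:**
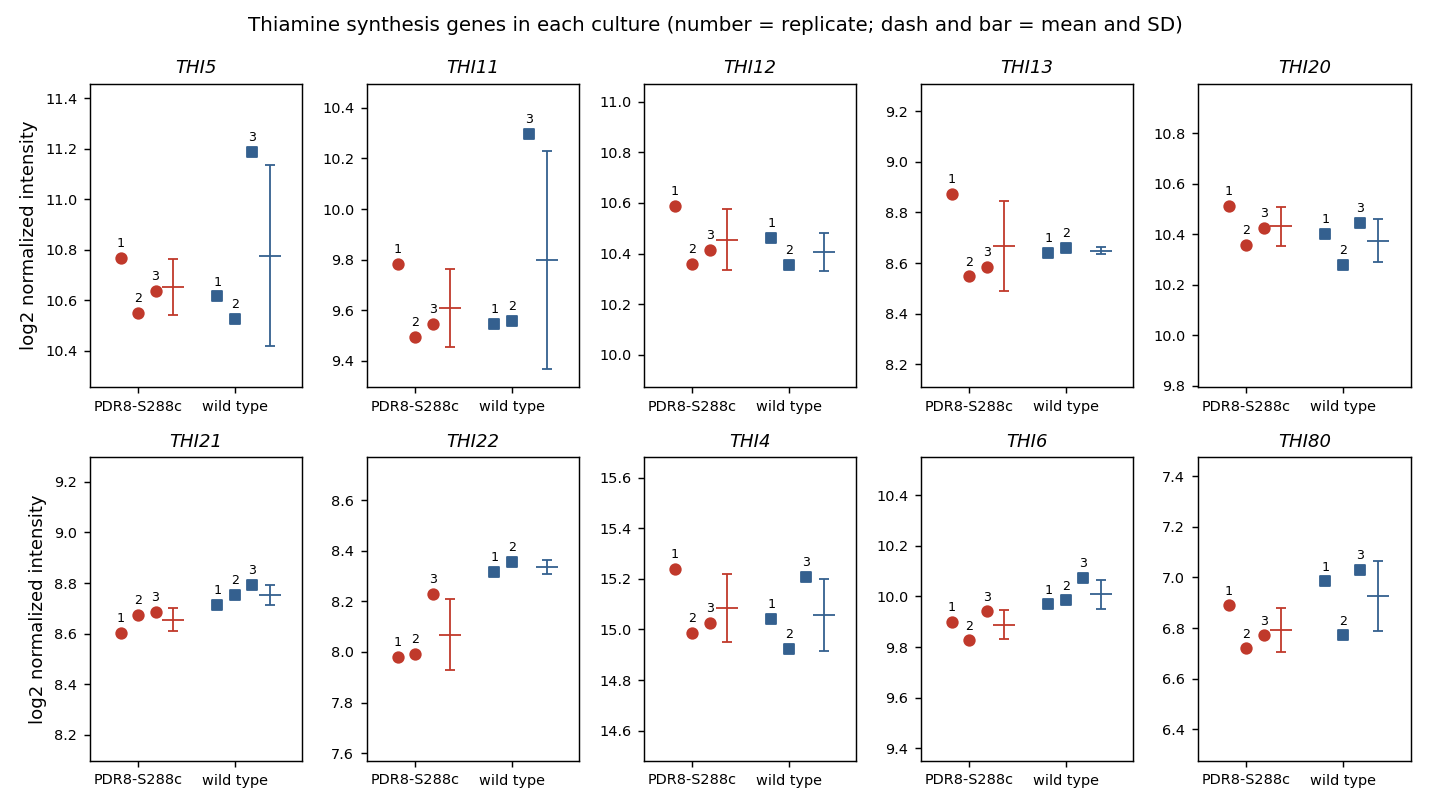
Log2 normalized intensity (y axis, each panel spanning 1.2 log2 units around its gene) of the 10 thiamine synthesis genes in the cultures of 59A PDR8-S288c (red circles, left) and 59A wild type (blue squares, right), with replicate numbers and with mean and SD beside the points. Wild type replicate 3 stands alone in THI5 (11.19) and THI11 (10.30) and has no value for THI12, THI13 and THI22.

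The copies of the pyrimidine gene varied more between cultures of one strain than between the strains. THI5 stood at 10.77, 10.55 and 10.64 in replicates 1, 2 and 3 of 59A PDR8-S288c, against 10.62, 10.53 and 11.19 in the wild type. Its high value was that of wild type replicate 3, and the other 5 cultures overlapped. The log2 fold change was -0.12 (SE 0.16, limma adjusted p = 0.73), with a 95% confidence interval from -0.50 to 0.25.

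THI11 had the same outline, with 9.78, 9.49 and 9.55 in 59A PDR8-S288c and 9.55, 9.56 and 10.30 in the wild type. Again replicate 3 of the wild type lay above all other cultures. The log2 fold change was -0.19 (SE 0.20, limma adjusted p = 0.649, 95% confidence interval -0.65 to 0.26).

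THI12 and THI13 were read in 2 wild type cultures only. THI12 had 10.59, 10.36 and 10.42 in 59A PDR8-S288c and 10.46 and 10.35 in wild type replicates 1 and 2. THI13 had 8.87, 8.55 and 8.58 in 59A PDR8-S288c and 8.64 and 8.66 in the same wild type cultures. In both genes replicate 1 of 59A PDR8-S288c was the highest and the groups overlapped. The log2 fold changes were 0.05 for THI12 (SE 0.08, limma adjusted p = 0.808) and 0.02 for THI13 (SE 0.10, limma adjusted p = 0.946).

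The sign of the difference in THI5 and THI11 rested on the 1 culture that THI12 and THI13 lack. In wild type replicate 3, THI5 was 0.61 log2 units above the mean of wild type replicates 1 and 2, or 1.53-fold, and THI11 was 0.75 above it, or 1.68-fold. Of the 4190 features measured on all 6 arrays, 99.4% had a smaller absolute difference than THI5 and 99.6% a smaller one than THI11. Without this array the log2 fold changes were 0.08 for THI5 and 0.06 for THI11 (limma adjusted p = 0.635 and 0.806). On the 5 arrays that measured all 4 copies, the differences were thus between 0.02 and 0.08, all above 0. Their SEs ran from 0.07 to 0.10, with limma adjusted p from 0.635 to 0.953. The shared sign rested in part on replicate 1 of 59A PDR8-S288c. Without that culture THI12 (-0.020) and THI13 (-0.083) were below 0. The copies are not independent, since a probe may also read the transcripts of the others, and the probe sequences were not used here.

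All 4 copies shared a smaller excess in replicate 1 of 59A PDR8-S288c. There the level exceeded the mean of replicates 2 and 3 by 0.18 log2 units in THI5, 0.26 in THI11, 0.20 in THI12 and 0.31 in THI13, while the median absolute difference over all features was 0.06. Replicate 1 was the highest of its strain for 7 of the 10 thiamine genes, the 4 copies among them, against 31.3% of all features. Wild type replicate 3 was the highest of its strain for all 7 of those measured there, against 44.0% of features. Both shares were thus larger in the thiamine genes than over all features. These cultures also tended to deviate together outside these genes. Over 4190 features, their deviations from their strain means had a correlation of 0.49. Across all pairs of cultures from the 2 strains, which are not independent, it ran from -0.69 to 0.62. These arrays were subarrays 6 and 2 of the slide. The part of culture state or slide position in the high values was not tested.

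**Figure D2:**
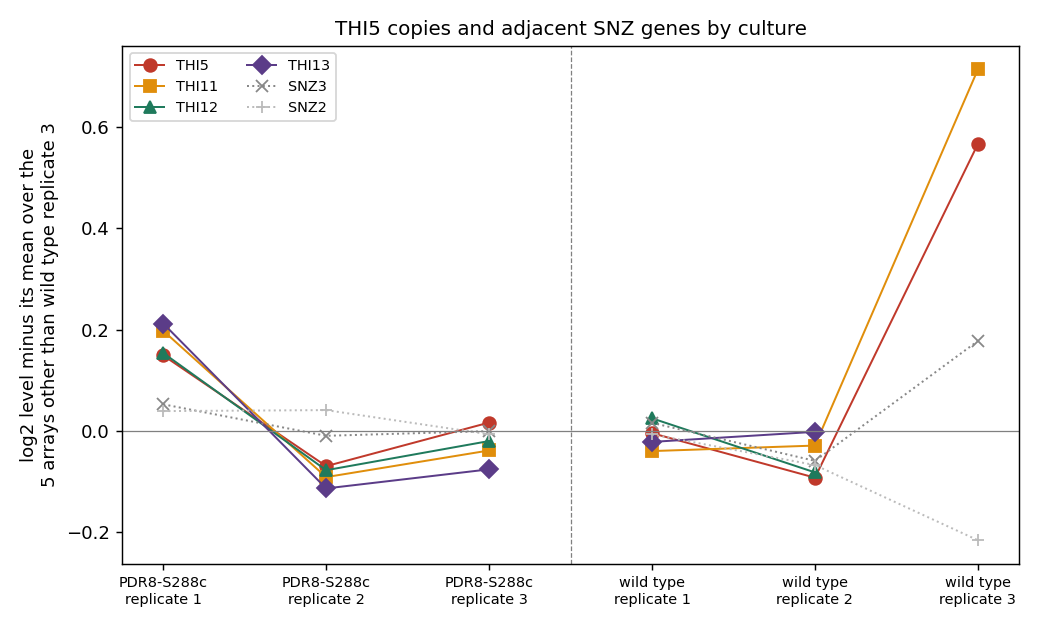
Log2 level of the 4 THI5 copies (solid lines) and of SNZ3 and SNZ2 (dotted grey) in each culture, minus the gene's own mean over the 5 arrays other than wild type replicate 3 (y axis, log2 units). Replicate 1 of 59A PDR8-S288c lies 0.15 to 0.21 above 0 in all 4 copies, and wild type replicate 3 lies 0.57 above it in THI5 and 0.71 in THI11, while SNZ3 is at 0.18 and SNZ2 at -0.22 there.

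In the RefSeq annotation of S288c (R64) the 4 copies have gene models of the same length, 1023 bases, and each lies beside an AAD gene, a family of putative aryl-alcohol dehydrogenases. THI5 lies between SNZ3 and the pseudogene AAD6, and THI12 between SNZ2 and AAD14, where SNZ2 and SNZ3 belong to the vitamin B6 family. THI11 lies between AAD10 and HXT16, and THI13 between HXT15 and AAD4, the HXT genes coding for hexose transporters. Whether 59A has this order, or each of the 4 copies, was not examined. The signal of a probe therefore need not come from the copy it is named for. SNZ3, next to THI5, had 10.01, 9.95 and 9.96 in 59A PDR8-S288c and 9.98, 9.90 and 10.14 in the wild type (log2 fold change -0.03, limma adjusted p = 0.846). SNZ2, next to THI12, had 9.56, 9.56 and 9.51 in 59A PDR8-S288c and 9.51, 9.45 and 9.30 in the wild type, so that its wild type replicate 3 was the lowest culture (log2 fold change 0.12, limma adjusted p = 0.339). HXT15, HXT16 and AAD4 were at background, between 5.18 and 5.37, on every array that read them. The other AAD neighbors were above it. AAD10, next to THI11, had means of 12.19 in 59A PDR8-S288c and 12.27 in the wild type. AAD14, next to THI12, had 11.33 and 11.32 (2 wild type values), and AAD6 had 7.27 and 7.18.

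THI20 and THI21 code for kinases that phosphorylate the pyrimidine unit, and THI22 for a related protein that is not needed for thiamine synthesis. THI20 had 10.51, 10.36 and 10.42 in 59A PDR8-S288c and 10.40, 10.28 and 10.44 in the wild type, with overlapping groups (log2 fold change 0.06, SE 0.06, limma adjusted p = 0.671). It was 0.0089 without wild type replicate 2 and 0.017 without replicate 1 of 59A PDR8-S288c. THI21 had 8.60, 8.68 and 8.69 in 59A PDR8-S288c and 8.71, 8.75 and 8.79 in the wild type. The groups of THI21 did not overlap, but the difference was small (log2 fold change -0.10, SE 0.05, limma adjusted p = 0.318).

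THI22 had the largest difference of the 10, with 7.98, 7.99 and 8.23 in 59A PDR8-S288c and 8.32 and 8.36 in wild type replicates 1 and 2. Each culture of 59A PDR8-S288c was below both wild type cultures. The log2 fold change was -0.27 (SE 0.09, 95% confidence interval -0.47 to -0.07, limma adjusted p = 0.171), a ratio of 0.83 on the linear scale. Across the alternatives its limma adjusted p ran from 0.0805 to 0.582, so that it did not pass 0.05 in any of them.

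THI4, which codes for the enzyme that makes the thiazole unit and gives up a sulfur atom of its own in doing so, was near the top of the scale. It had 15.24, 14.99 and 15.03 in 59A PDR8-S288c and 15.04, 14.92 and 15.21 in the wild type, with the highest culture 0.76 log2 units below saturation. The groups overlapped, with replicate 1 of 59A PDR8-S288c and replicate 3 of the wild type as the highest pair (log2 fold change 0.03, SE 0.09, limma adjusted p = 0.911).

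THI6, whose product phosphorylates the thiazole unit and joins it to the pyrimidine, had 9.90, 9.83 and 9.94 in 59A PDR8-S288c and 9.97, 9.98 and 10.07 in the wild type. The groups did not overlap (log2 fold change -0.12, SE 0.05, 95% confidence interval -0.24 to -0.001, limma adjusted p = 0.274). THI80, which codes for the kinase that turns thiamine into thiamine diphosphate, had 6.89, 6.72 and 6.77 in 59A PDR8-S288c and 6.98, 6.77 and 7.03 in the wild type. These overlapped, and the log2 fold change was -0.14 (SE 0.08, limma adjusted p = 0.41). Of the 7 members read on all 6 arrays, 2 (THI6 and THI21) were lower in 59A PDR8-S288c without overlap, against 11.1% of features so measured. Of the 3 read on 5 arrays, THI22 was lower without overlap, against 13.1%.

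**Figure D3:**
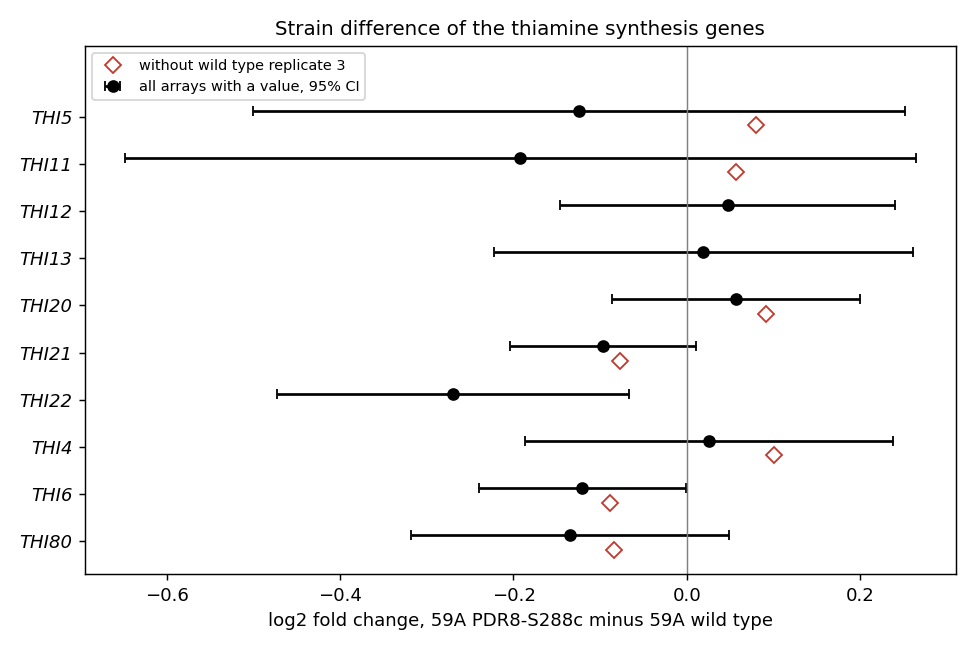
Log2 fold change (x axis, 59A PDR8-S288c minus 59A wild type) of each thiamine synthesis gene, with its 95% confidence interval from limma (black), and the value without wild type replicate 3 for the 7 genes read on that array (open red diamonds). THI5 and THI11 cross 0 when that array is left out, while THI6, THI21, THI22 and THI80 are below 0.

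The spread between cultures of one strain was uneven among the genes. The pooled SD within strains was 0.32 log2 units for THI11 and 0.26 for THI5, wider than in 98.8% and 97.8% of the features read on all 6 arrays, and 0.14 for THI4. It was 0.06 for THI6 and 0.04 for THI21, against a median of 0.07 over those features. With all arrays, a difference of a given size was therefore less detectable in THI5 and THI11 than in THI6 or THI21. Much of the wide spread came from wild type replicate 3. Without that array the SE of the log2 fold change fell from 0.16 to 0.07 in THI5 and from 0.20 to 0.09 in THI11. It was 0.05 in THI6 and in THI21.

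By the root mean square difference of centred levels over the 6 arrays, the genes nearest to the mean profile of the 7 complete members were TRM8 (0.018 log2 units), POP3, YSA1, TIF3 and MIG1 (0.028), among 3145 other named genes whose mean was over 1 log2 unit above background. The mean profile itself had a root mean square of 0.12 log2 units, with wild type replicate 3 at 0.23 above its mean. Nearest to THI5 alone, a comparison added after the values were seen, were YMR315W, YLR326W, ARB1, PDC6 and BIO2, the gene of biotin synthase, at 0.06 to 0.08 log2 units.

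The regulators showed little difference between the strains. Of 3, 0 passed an adjusted p under 0.05 or an unadjusted one (limma). THI2, the activator of the pathway, had a log2 fold change of 0.03 (SE 0.06), THI3, the regulator that senses thiamine diphosphate, one of -0.03 (SE 0.07), and PDC2, an activator also of pyruvate decarboxylase genes, one of -0.0042 (SE 0.06, with 2 wild type values). The 95% confidence intervals of the 3 genes lay between -0.19 and 0.18.

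Of 8 genes of uptake and salvage, 0 passed an adjusted p under 0.05 and 1 an unadjusted one (limma). The share of all features past the latter was 18.1%. Of the 8 genes, 7 were below 0, with a median of -0.08, while 2937 of all 6248 features were below 0. Without wild type replicate 3, 5 of the 8 were below 0 and the median was -0.025. The gene past the unadjusted threshold was PHO3, which codes for a periplasmic phosphatase that frees thiamine from its phosphates. PHO3 had 6.63, 6.63 and 7.20 in 59A PDR8-S288c and 7.31, 7.53 and 7.42 in the wild type. Each culture of 59A PDR8-S288c was lower, replicate 3 only slightly so. Of the features read on all 6 arrays, 11.1% were lower without overlap. The log2 fold change was -0.60 (SE 0.15, 95% confidence interval -0.96 to -0.25, limma adjusted p = 0.0957), and without replicate 3 of 59A PDR8-S288c it was -0.79 (SE 0.07, limma adjusted p = 0.0168). PHO3 did not pass in the other 15 alternatives, where its log2 fold change ran from -0.66 to -0.49 and its limma adjusted p from 0.082 to 0.556.

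THI7, the main thiamine transporter gene, had 11.26, 10.99 and 10.93 in 59A PDR8-S288c and 11.34, 11.05 and 11.12 in the wild type, with overlapping groups (log2 fold change -0.11, SE 0.10, limma adjusted p = 0.624). In this gene replicate 1 was the highest culture of both strains. Its relatives THI72 and NRT1 had log2 fold changes of -0.02 and -0.08, and TPC1, the mitochondrial carrier of thiamine diphosphate, one of -0.07. The remaining genes were THI73 (0.09, with 2 wild type values), THI74 (-0.02) and PET18 (-0.13, also with 2), none past the test (limma adjusted p = 0.346 to 0.876).

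**Figure D4:**
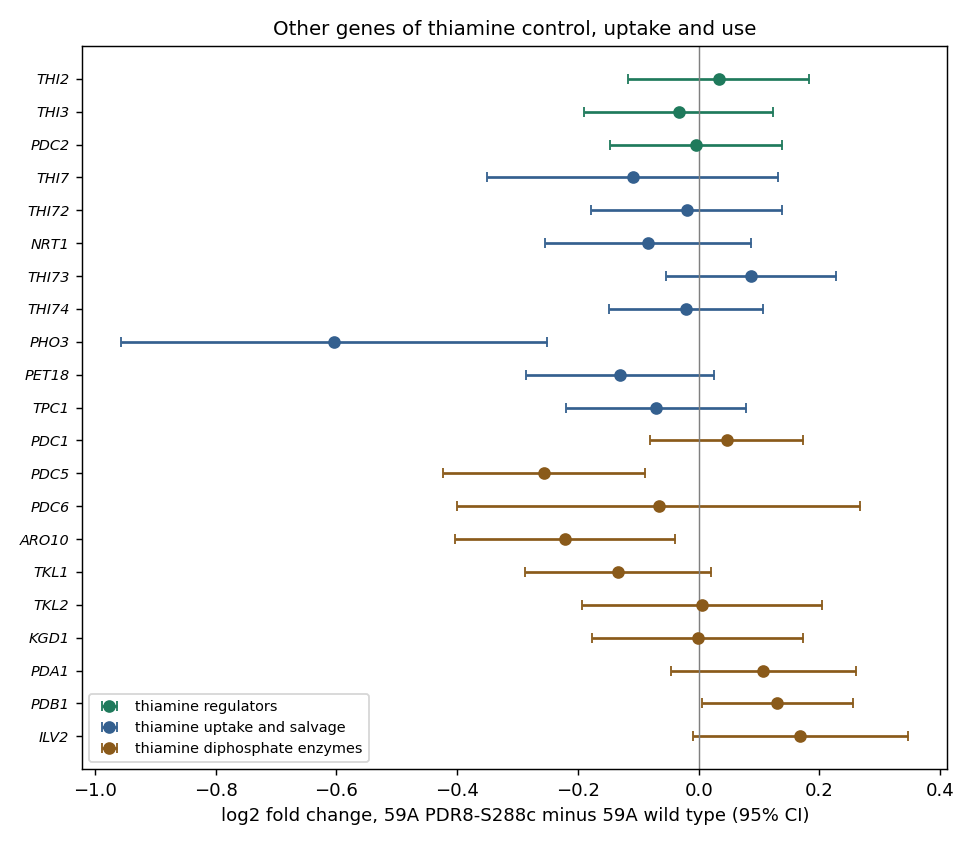
Log2 fold change (x axis, 59A PDR8-S288c minus 59A wild type) with 95% confidence interval from limma of the regulators (green), the uptake and salvage genes (blue) and the enzymes that use thiamine diphosphate (brown). PHO3 is the lowest at -0.60, and no gene of these lists passed an adjusted p under 0.05.

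Of 11 listed genes for enzymes that use thiamine diphosphate, 10 were measured, and 0 passed an adjusted p under 0.05 (limma, 3 at an unadjusted p under 0.05). PDC5, a minor pyruvate decarboxylase gene, had 11.33 ± 0.09 in 59A PDR8-S288c and 11.58 ± 0.12 in the wild type (SD, n = 3 each), a log2 fold change of -0.26 (SE 0.07, limma adjusted p = 0.121). ARO10, a decarboxylase gene of fusel alcohol formation, had one of -0.22 (SE 0.08, limma adjusted p = 0.199). PDB1, of the pyruvate dehydrogenase complex, was the third, at 0.13 (limma adjusted p = 0.263). PDC6, another pyruvate decarboxylase gene, showed the high wild type replicate 3 of THI5, 0.50 log2 units above the mean of replicates 1 and 2. The list did not share this height. In its other genes read on that array, the same difference ran from -0.18 for TKL2 to 0.20 for PDA1.

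Of 8 vitamin B6 genes, which supply the substrate of the THI5 copies, 0 passed an adjusted p under 0.05 or an unadjusted one (limma). Their log2 fold changes ran from -0.03 for SNZ3 to 0.14 for BUD16, with SNO2 next at 0.12, BUD16 and SNO2 with 2 wild type values. Of the 8, 6 were above 0, with a median of 0.11, while 3311 of all 6248 features were above 0. Without wild type replicate 3 the median was 0.088.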

How the data were processed

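RNA of 6 cultures was hybridized to one-color Agilent arrays. The authors quantile-normalized the spot-median intensities with limma in R 2.13.1 and deposited them as log2 values, which ran from 5.08 to 16. The methods do not say whether these 6 arrays were normalized with the others of the study. Quantile scaling gives relative levels, and values near background or saturation are compressed.

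Of 6271 probes, 5220 have 1 gene symbol, none has several and 1051 have none. A total of 5218 matched the RefSeq table of R64, used for names, gene lengths and neighbors. The brightest probe stood for each of 22 genes with several. The strain difference was fitted in R 4.3.3 by lmFit and eBayes of limma 3.58.1 without a block, and p-values were adjusted over 6248 features (Benjamini-Hochberg). The fit was tested on simulated data. The number of arrays limits the precision. The p-values rest on the spread between these cultures, labelled as biological replicates, which eBayes moderates with the spread over all features.

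The genes and lists were chosen with earlier results of these data known. Named were all 10 members, the regulators, the uptake and salvage genes, in other lists those past the threshold or with the largest change, the 5 nearest profiles and the neighbors of the THI5 copies. Where wild type replicate 3 had no value, leaving out another wild type array left 1 value, assumed to vary like the rest. Alternatives were 2 scalings, leaving out dim features or incomplete ones, array weights, a trended robust variance, probe means, replicate blocks, slide position and leaving out each array. In 59A PDR8-S288c the replicate numbers of 2 samples differ between title and description, and the titles were used.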

Additional observations from a re-analysis of the deposited data

How the results depend on the processing

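No thiamine synthesis gene passed an adjusted p under 0.05 from limma in any of 16 alternatives (15 for THI12, THI13 and THI22, which the restriction to complete features leaves out). The lowest adjusted p was 0.0805. THI6, THI21, THI22 and THI80 had log2 fold changes below 0 and THI20 above 0 in all of theirs. Why the values below moved was not tested. Slide position as a covariate leaves 1 wild type culture to carry the comparison, and the sign turned there in THI5 (0.036), THI11 (0.062) and THI12 (-0.0061), and with array weights in THI13 (-0.016). When single arrays were left out, the log2 fold change ran from -0.051 to 0.101 for THI4, -0.25 to 0.080 for THI5, -0.32 to 0.057 for THI11, -0.020 to 0.101 for THI12, -0.083 to 0.080 for THI13 and 0.0089 to 0.093 for THI20. The sign turned without wild type replicate 3 in THI5 and THI11, without replicate 1 of 59A PDR8-S288c in THI4, THI12 and THI13, and without wild type replicate 2 in THI4 and THI12. The median over the 10 genes ran from -0.11 to 0.033, the highest without wild type replicate 3. Over all genes, 96 features passed an adjusted p under 0.05, against 152 with trended robust variances, 200 with weighted arrays, 6 with slide position and 3 to 90 when an array was left out. Among the last, the count was 3, 3 and 48 on leaving out replicates 1, 2 and 3 of 59A PDR8-S288c, and 13, 3 and 90 on leaving out those of the wild type.

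Replicate numbers were not taken to pair the cultures. The deviations of same-numbered cultures by title had correlations of 0.17, 0.34 and -0.43 over 4190 features, and by description -0.05, -0.69 and -0.43. With the replicate block of the titles 19 features passed and with that of the descriptions 3, with no thiamine synthesis gene among them in either.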
